A study of Gasterosteus aculeatus with 34 samples.

Results

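The genes described here are 272 Ensembl gene models of the threespine stickleback (Gasterosteus aculeatus) whose RNA level in 1 forebrain region followed its level in another region of the same fish. Members were chosen by measured values. The level was log2(CPM + 0.1), where CPM is the count of a gene scaled to 1000000 counts over the gene models of a library. For r alone, the mean of the treatment group was subtracted in each region. A member had a Pearson r above 0.9 between telencephalon and diencephalon over 17 males, a range of at most 4 log2 units over the telencephalon libraries, region means differing by under 2 log2 units, and a mean of at least 1 CPM. Of 22295 gene models, 20747 were Ensembl genes that could enter, and 840 had an r above 0.9. Of these, 496 had a mean under 1 CPM, 71 exceeded the range limit and 1 exceeded the region limit, which left the 272.

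RNA was sequenced from the telencephalon and the diencephalon of 17 males of the white ecotype, reared in the laboratory from wild-caught parents. Every male had been through all 4 treatments, in 8 trials, and the brain was taken 60 minutes after the last trial, whose treatment defines the group. The 4 control males were last shown empty flasks, the 4 courtship males a gravid female, the 5 challenge males a rival male in breeding colour, and the 4 tradeoff males a female and a rival together. All 4 groups therefore share the history of every stimulus, and they differ in the last trial. The labels do not give the families of the males.

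Levels of a transcript differ between individuals of a species for reasons that include inherited variants near a gene, differences in gene copy number, and the state of the animal. The telencephalon and the diencephalon are separate dissections and separate libraries, so a male's deviation in both is a repeated measurement of that male. In sticklebacks males carry a Y chromosome, and many Y genes have a related copy on the X or elsewhere. A read can therefore be counted on either copy, or on none where it matches both. The files pair no names with their identifiers, so no function or position can be given for a member, and names that carry chrY are reported as the files give them. In bulk tissue, more cells of a type and more RNA per cell cannot be told apart, which holds for every level below.

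Gene models received 22802875 to 36656215 counts per telencephalon library and 16522465 to 34384860 per diencephalon library. Alignments that were not unique made 11.3% to 21.9% of a telencephalon library and 3.72% to 4.73% of a diencephalon library, so genes with near-identical copies may be counted differently in the regions. The regional identity of the dissections could not be checked by marker genes, since 0 of 22295 identifiers matched the reference gene table.

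The 272 members were 1.67% of the 16267 Ensembl genes that reach a mean level of 1 CPM. Over those 16267 genes the median r between regions was 0.407, with quartiles of 0.164 and 0.617, and 2346 had an r below 0. Members had a median r of 0.930, up to 0.994. They were found at all levels of abundance: 33 of 2764 genes with 1 to 5 CPM, 84 of 4789 with 5 to 20 CPM, 114 of 6704 with 20 to 100 CPM and 41 of 2010 with 100 CPM and over. Together they made 2.13% of gene counts on average. The r of a member chose it, so it is given as a description. Without the 2 males farthest from the median, 122 of the 272 members kept an r above 0.9, and 253 an r above 0.8. Whichever male was left out, 161 stayed above 0.9. Spearman's rho was above 0.9 in 140.

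The label of the set is graded, and the size of the male differences varied among members. Over the 17 telencephalon libraries the members' range was 1.54 log2 units at the median (0.33 to 3.99), against 0.74 over the 16267 genes. In the diencephalon it was 1.48 (0.34 to 5.73), against 0.62. In the telencephalon 65 members ranged by under 2-fold, 109 by 2- to 4-fold and 98 by more. A choice by r favours genes whose spread is wide against counting error, so the next ratio is a description. The SD of a member's deviations was 6.70 times its Poisson SD at the median in the telencephalon, and in the diencephalon 6.44 times. The same ratio over the 16267 genes was 3.16 and 2.59. No member was at 0 in any library, and in 252 members the lowest count was at least 20. The lowest count of any member in a library was 2. The SD in the diencephalon was 0.975 of that in the telencephalon at the median, so that males differed by similar amounts in both regions.

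Members just inside and outside the limits show where the choice was sharp. ENSGACG00000010004, just above an r of 0.9, stood next to the excluded ENSGACG00000015475 with 0.8997. ENSGACG00000000141 had a telencephalon range of 3.99 and the excluded ENSGACG00000000530 one of 4.02. ENSGACG00000000158 had a mean of 1.10 CPM and the excluded ENSGACG00000000298 one of 0.996 CPM. The region means of ENSGACG00000014492 differed by 1.30 log2 units, the most of any member, and those of the excluded ENSGACG00000020946 by 2.79. The limit on the region difference thus lay in a wide gap, and the other 3 limits cut through a continuum.

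The 6 members with the highest r show the forms that the variation took. ENSGACG00000017412 (r = 0.993) had 188 CPM in the lowest telencephalon library, 354 at the median and 815 in the highest. Its diencephalon values were 139, 288 and 636 CPM. Male 329 was lowest in both regions, and males 302, 303, 306, 317, 322 and 330 were the 6 highest in both. ENSGACG00000001466 (r = 0.989) ran from 38.1 over 138 to 310 CPM in the telencephalon and from 17.9 over 86.7 to 230 CPM in the diencephalon. Male 298 was lowest and male 318 highest in each region, and the other males filled the range between them. ENSGACG00000012958 (r = 0.988) was at 32.8, 67.8 and 102 CPM in the telencephalon and 39.3, 79.0 and 114 CPM in the diencephalon, again without a gap. ENSGACG00000016345 (r = 0.988) was not graded. In 7 males it was at 2.40 to 3.60 CPM in the telencephalon, with diencephalon values of 2.21 to 3.74 CPM. In the other 10 it was at 12.6 to 31.6 and 13.4 to 29.3 CPM, so these males did not overlap in either region. The 7 were males 298, 299, 302, 304, 307, 319 and 321. How many other genes divide the males in this way was not counted.

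**Figure D1:**
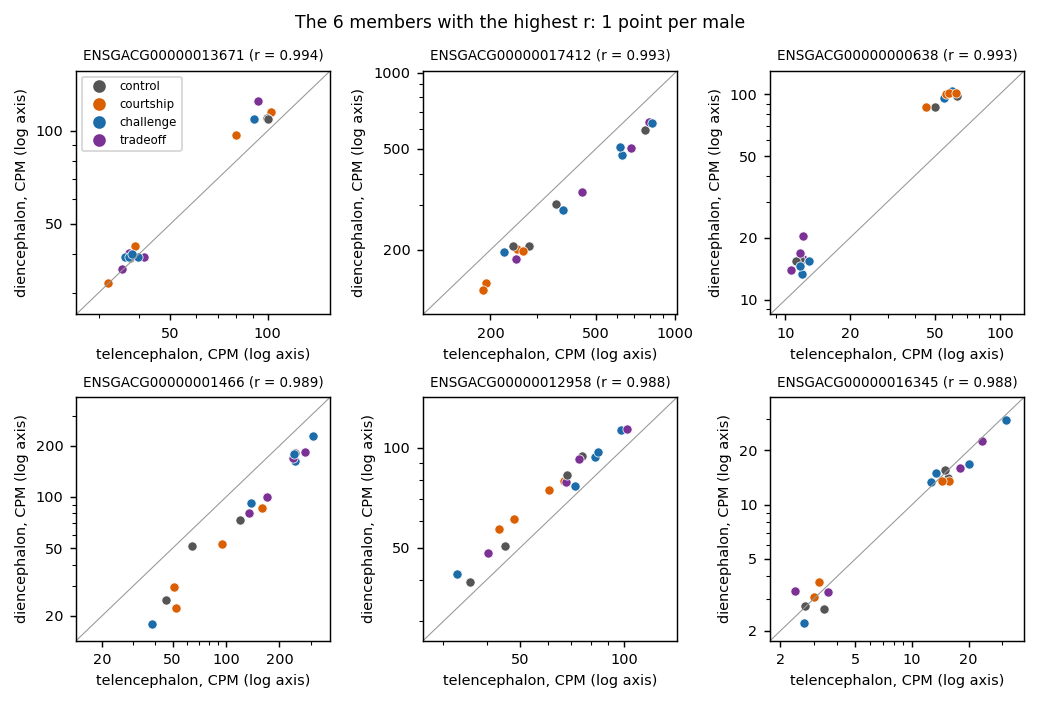
The 6 members with the highest r, with the telencephalon value of each male on the x axis and the diencephalon value on the y axis (CPM, log axes), 1 point per male, coloured by treatment. The grey line marks equal values. ENSGACG00000001466 and ENSGACG00000012958 spread along a line. ENSGACG00000017412 spreads too, with no male between 445 and 619 CPM in the telencephalon or between 339 and 475 CPM in the diencephalon. ENSGACG00000013671, ENSGACG00000000638 and ENSGACG00000016345 fall into separate clusters of males.

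The remaining members of these 6 stepped between 2 levels. ENSGACG00000013671 (r = 0.994) was at 31.9 to 41.3 CPM in the telencephalon of 11 males and at 80.0 to 102 CPM in the other 6, males 298, 299, 304, 307, 319 and 321, all of them among the 7 males with the low level of ENSGACG00000016345. In the diencephalon the same 11 males had 32.2 to 42.3 CPM and the same 6 had 96.8 to 125 CPM. No library lay between the levels. Within the 11 lower males the r between regions was 0.802, and within the 6 higher males it was 0.611. Both are of log2 values without subtraction of group means. ENSGACG00000000638 (r = 0.993) had 10.6 to 12.9 CPM in the telencephalon of 9 males and 45.2 to 63.4 CPM in the other 8. The diencephalon values of the same males were 13.3 to 20.5 and 86.4 to 104 CPM. Of the other Ensembl genes, 0.0123% (2 of 16266) divided these males in the same way in both regions, and both were members, ENSGACG00000000633 and ENSGACG00000002451.

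Steps like these were more frequent among members than among all genes, which the choice by r favours. The widest gap between neighbouring males, on the log2 scale, divided the males identically in both regions in 127 members, or 46.7%, against 5.77% of the 16267 genes. In 18 members, or 6.62%, this gap took over 50% of the range in both regions, against 0.338% of all 16267 genes. Of the 18, 11 had at least 2 males on each side, and 7 set a single male apart, 4 with that male highest and 3 with it lowest. Over the 18 members, 22 levels held 6 or more males. Within such a level the r between regions, here of log2 values without subtraction of group means, was 0.317 at the median (-0.26 to 0.87). In 9 of the 22 it was above 0.5. Over all 17 males the same members had an r above 0.9 with group means subtracted, which is not the same measure. In 10 of the 18 the step was under 2.5-fold in both regions.

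In the 7 members that set a single male apart, that male was 302 (4 members) or 323 (3 members). ENSGACG00000008694 of tradeoff male 302 was at 127.6 CPM in the telencephalon; its diencephalon value was 132.8 CPM. The other 16 males had 27.3 to 34.9 and 22.9 to 29.2 CPM, and their r between regions was 0.036 (log2 values, group means not subtracted). The same male was lowest for ENSGACG00000012558, at 0.989 and 1.58 CPM against 4.72 to 12.4 and 5.08 to 13.2 CPM. The step was smaller for ENSGACG00000015673, lowest in male 302 at 46.1 and 46.5 CPM against 75.4 to 93.6 and 71.7 to 86.0 CPM in the others. ENSGACG00000000373 was at 33.1 and 48.1 CPM in tradeoff male 323 and at 5.88 to 8.70 and 7.61 to 11.5 CPM in the other 16. ENSGACG00000020023 was lowest in male 323, at 0.713 and 0.303 CPM against 3.03 to 9.06 and 3.87 to 8.67 CPM.

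Several members varied with models whose names carry chrY. Among 16603 gene models outside the set, 31 members had one whose male deviations correlated with theirs at an absolute r above 0.9 in both regions (17 males each). For 27 of the 31 this best partner was an Ensembl gene, 19 different genes in all, and for 4 it was a chrY model. The share of chrY models among the 16603 was not counted, so the 4 are not read as many or few. Of the 31 correlations, 7 were negative. The best absolute r of a member, taken as the smaller of the regions, was 0.822 at the median. Partners were searched over all models, so these values describe likeness only.

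ENSGACG00000012612 and maker-chrY-augustus-gene-137.80 moved in opposite directions from male to male. The member was at 30.5 to 38.1 CPM in the telencephalon of 11 males and at 77.8 to 84.5 CPM in males 302, 303, 306, 317, 322 and 330. The chrY model was at 44.4 to 54.6 CPM in the same 11 males and at 1.88 to 4.17 CPM in the 6. In the diencephalon the member had 22.4 to 26.6 and 49.6 to 60.2 CPM, and the chrY model 28.2 to 35.3 and 1.10 to 2.48 CPM. The r between the pair was -0.99 in each region. Their sum was nearly constant, at 78.7 to 87.7 CPM in the telencephalon, with diencephalon values of 51.0 to 61.3 CPM. The coefficient of variation (SD over mean) of the sum was 2.93% and 5.29%, whereas that of the member alone was 44.3% and 43.0%. How reads of these models are divided was not tested, since no genome was used here.

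The males that stood apart for ENSGACG00000012612 did so in other models as well. The 6 males were all higher or all lower than the other 11, in both regions, in 6 of 16266 other Ensembl genes (0.0369%), and 2 of these 6 were members. ENSGACG00000017412 was higher in the 6 males, at 619 to 815 CPM against 188 to 445 CPM in the telencephalon. ENSGACG00000014744 was lower in them, at 4.16 to 6.25 against 7.61 to 21.8 CPM in the telencephalon. Its diencephalon values nearly met, at 7.34 to 13.68 against 13.76 to 42.2 CPM. Besides maker-chrY-augustus-gene-137.80, 2 more chrY models divided the males in this way. The chrY models searched were not counted, so no share of them is given. The model augustus_masked-chrY-processed-gene-137.136 was at 6.48 to 11.7 CPM in the diencephalon of the 6 males and at 0 to 0.136 CPM in the others. Its telencephalon values lay closer together, at 0.145 to 7.10 against 0 to 0.0546 CPM.

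ENSGACG00000013671 divided the males differently, and its chrY partner moved in the same direction. The model maker-chrY-snap-gene-46.31 was at 57.9 to 69.9 CPM in the telencephalon of the 6 males with the high level and at 33.0 to 38.1 CPM in the other 11. In the diencephalon it was at 48.8 to 59.0 and 23.0 to 33.3 CPM. The r with the member was 0.987 and 0.961, and the sum ranged 2.56-fold and 2.89-fold. Of the other Ensembl genes, 0.0369% (6 of 16266) divided the same males without overlap in both regions, and 3 of those were members: ENSGACG00000011653, ENSGACG00000013307 and ENSGACG00000013664, all higher in the 6. In all, 4 chrY models did so, again without a count of the chrY models searched. The model maker-chrY-augustus-gene-103.76 was at 0.0740 to 0.460 CPM in the telencephalon of the 6 males and at 1.67 to 3.63 CPM in the others, opposite to ENSGACG00000013664 at 8.36 to 9.85 and 3.39 to 6.21 CPM. No male was in the high group of both ENSGACG00000013671 and ENSGACG00000012612, and 5 of the 17 were in neither.

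In male 323 the rise of ENSGACG00000000373 came with a fall of maker-chrY-snap-gene-92.53. That model was at 1.51 CPM in the telencephalon of this male and at 4.43 CPM in its diencephalon, and at 20.4 to 35.3 and 30.8 to 53.3 CPM in the other 16. The sum of the pair in male 323 lay within the range of the other males, which was 27.2 to 41.8 CPM in the telencephalon, with diencephalon values of 40.9 to 64.0 CPM. Its coefficient of variation was 12.6% and 10.2%, against 76.2% and 76.9% for the member alone. Of the negative correlations, 4 were with an Ensembl gene. In males in which ENSGACG00000001544 was low, at 17.6 to 19.1 CPM in the telencephalon, ENSGACG00000017589 was at 9.07 to 9.23 CPM. The other males had 22.5 to 30.7 and 0.109 to 0.536 CPM. The coefficient of variation of the sum of this pair was 7.03% in the telencephalon, and in the diencephalon 7.43%. For ENSGACG00000001544 alone it was 15.6% and 17%, so the member itself varied little. For ENSGACG00000008694 and ENSGACG00000007866 (r = -0.94 and -0.93) the sum was not constant, with a coefficient of variation of 51.0% and 58.3%.

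**Figure D2:**
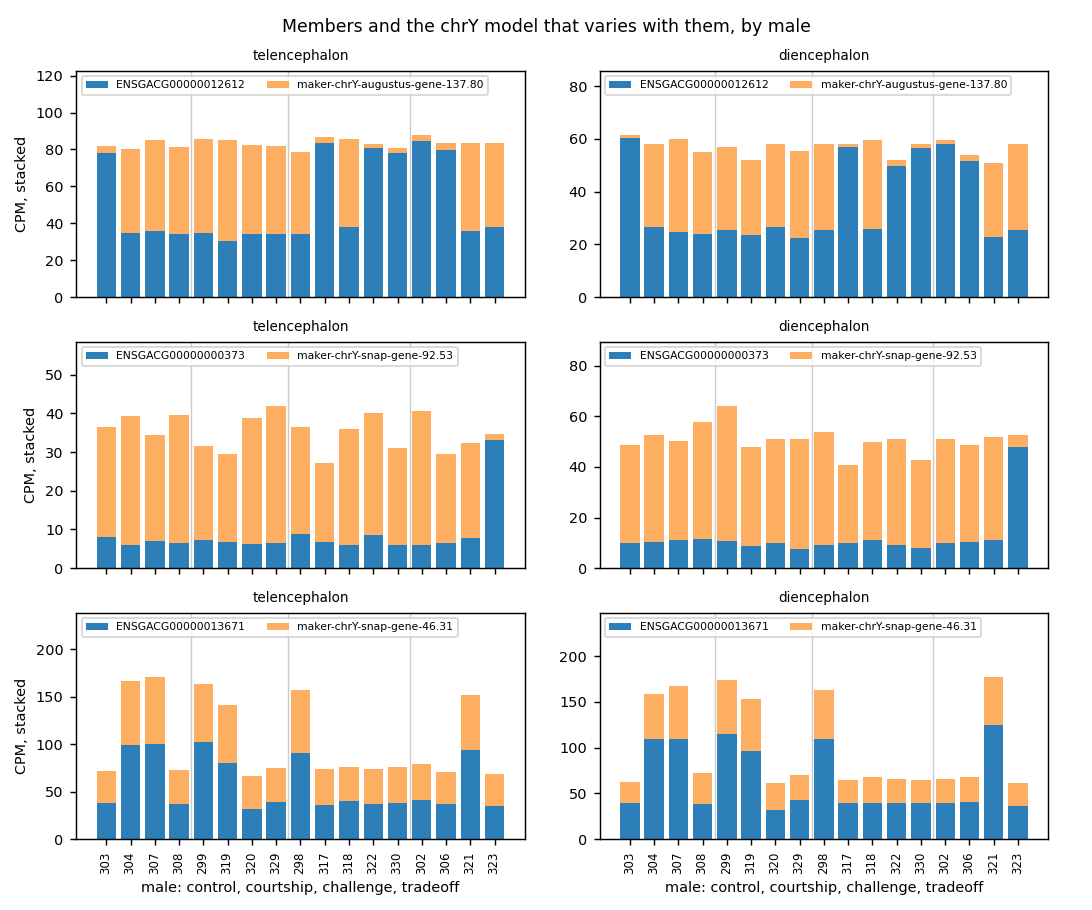
CPM of 3 members (blue) and of the chrY model with the highest absolute r to each (orange), stacked, for each of 17 males. The telencephalon is on the left and the diencephalon on the right, the y axis starts at 0, and grey lines part the treatments. The r was negative for ENSGACG00000012612 and ENSGACG00000000373 and positive for ENSGACG00000013671. The stacked bars of ENSGACG00000012612 are of nearly equal height, at 78.7 to 87.7 CPM in the telencephalon, while those of ENSGACG00000013671 rise together with its partner in 6 males.

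Most members had no other member that varied closely with them. Over the 36856 pairs of members, the absolute r of the male deviations (mean of both regions) was 0.270 at the median. It exceeded 0.9 in 72 pairs, 62 positive and 10 negative. The same share over pairs of all genes was not counted. Joined through these pairs, 56 members formed 15 sets, 7 of them pairs, and 216 members belonged to none. The members therefore did not follow 1 common axis of difference between males. Each male was the highest of all for 8 to 27 members and the lowest for 1 to 27. The share of members above the group mean in a male was 47.1% to 58.5%, so no male was high or low throughout. Male 298, of the challenge group, deviated most, by a root mean square of 0.71 log2 units, and male 320 least, by 0.41.

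**Figure D3:**
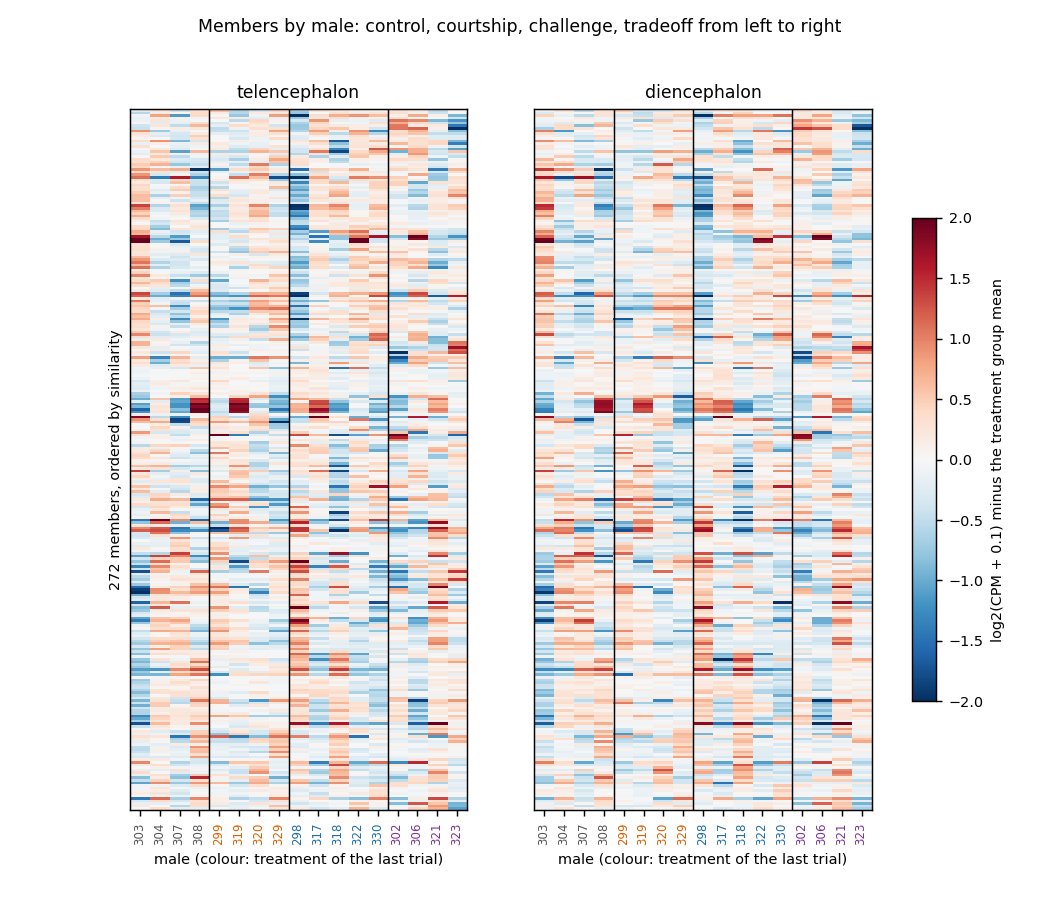
Deviation of log2(CPM + 0.1) from the treatment group mean for 272 members (rows, the same order in both panels) in each male (columns, coloured by treatment) in the telencephalon and the diencephalon; colours are limited at 2 log2 units. The panels look alike, as the rule requires, and no male is high or low throughout: 47.1% to 58.5% of members lie above the group mean in each.

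The largest set of members that varied together held 8, led by ENSGACG00000001466. Its pairs were all positive, with an r of 0.770 to 0.989. In male 298, ENSGACG00000010668 was at 3.99 and 5.22 CPM, against medians of 12.4 and 17.9 CPM. ENSGACG00000003613 was at 8.70 and 9.27 CPM, with medians of 19.2 and 17.9 CPM. ENSGACG00000004793 and ENSGACG00000020296 were lowest in male 298 in both regions too, while ENSGACG00000017142 was lowest in male 308. The identifiers of ENSGACG00000003612 and ENSGACG00000003613 are neighbours, and the r of this pair was 0.977.

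A set of 6 held ENSGACG00000014492 and ENSGACG00000013918, the pair with the highest r of all, 0.998. ENSGACG00000014492 was at 113 CPM in the lowest telencephalon library, 243 at the median and 1165 in the highest. The diencephalon values were 295, 613 and 2154 CPM. Courtship male 319 was highest in both regions and control male 308 next, at 921 and 2024 CPM. ENSGACG00000013918 had 826 and 1278 CPM in male 319, against medians of 157 and 317 CPM. The members ENSGACG00000006807, ENSGACG00000009622, ENSGACG00000013895 and ENSGACG00000014774 followed them, and ENSGACG00000013902, outside the set, varied with 4 of the 6. The telencephalon deviations of these 6 had an r of -0.57 to -0.42 with the share of no-feature reads and of 0.332 to 0.520 with log2 depth over 17 libraries. In the diencephalon these ran from -0.186 to -0.0236 and from 0.0700 to 0.175, and the r with the share of ambiguous reads was -0.588 to -0.322 there, against -0.107 to 0.116 in the telencephalon. The part of these measures in the pattern was not tested.

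A set of 7 joined members that moved in opposite directions. ENSGACG00000007104 was low in males 303, 306, 322 and 330, at 7.45 to 9.999 CPM in the telencephalon, where the other 13 males had 14.8 to 19.6 CPM. ENSGACG00000005796 was high in the same 4 males, at 2.61 to 4.07 CPM against 0.198 to 1.03 CPM. The diencephalon gave the same division, with 10.7 to 12.4 against 22.6 to 28.6 CPM for ENSGACG00000007104 and 2.78 to 6.08 against 0.676 to 1.75 CPM for ENSGACG00000005796. The share of all genes with this division was not counted. Another set of 6, with ENSGACG00000013671, had 8 negative pairs of 15. A set of 4 divided the males by 308, 318 and 329: ENSGACG00000020463 was at 76.4 to 86.5 CPM in the telencephalon of these 3 and at 34.2 to 44.0 CPM in the others, and ENSGACG00000020327 at 159 to 162 against 105 to 126 CPM. ENSGACG00000001544 was low in the same 3 males. Besides ENSGACG00000020463, 0.0861% of Ensembl genes (14 of 16266) divided the males in this way in both regions.

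**Figure D4:**
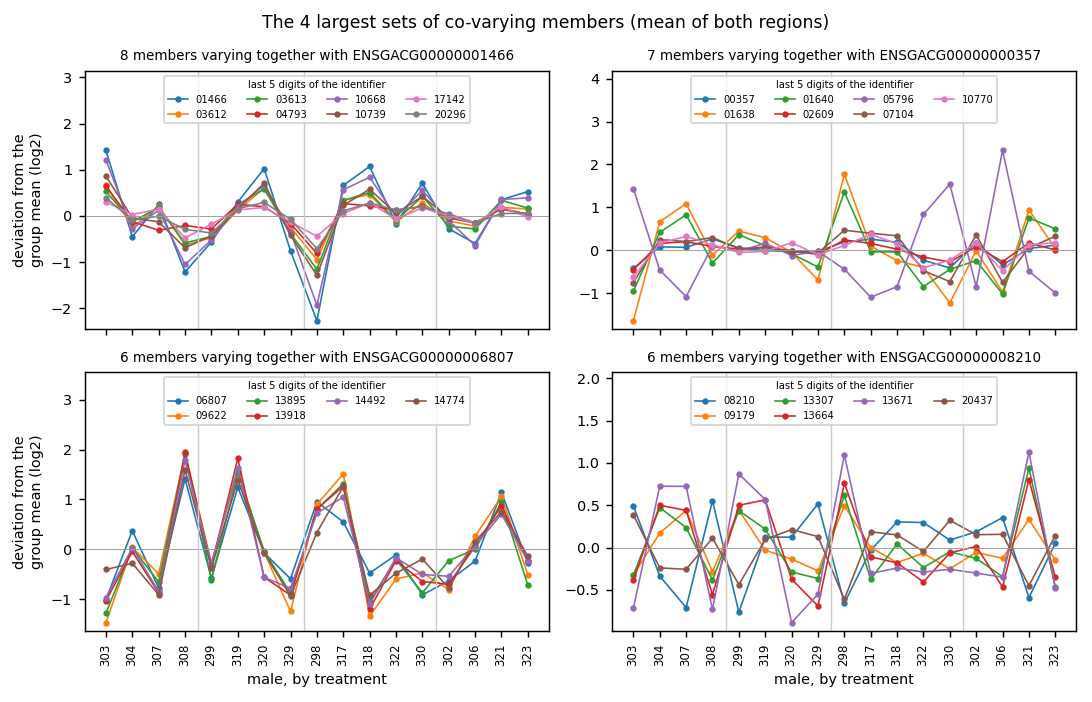
Deviation from the treatment group mean in log2 units (y axis, mean of both regions) in each male (x axis, by treatment) for the 4 largest sets of members that varied together; each line is 1 member. Lines run in parallel in the sets of ENSGACG00000001466 and ENSGACG00000006807, and some lines mirror others in the sets of ENSGACG00000000357 and ENSGACG00000008210.

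Some members with neighbouring identifiers varied together. There were 23 pairs with identifier numbers at most 5 apart, and 9 of them, or 39.1%, had an absolute r above 0.7. Of all pairs, 3.62% did. ENSGACG00000019775 and ENSGACG00000019778 had an r of 0.976 and ENSGACG00000018885 and ENSGACG00000018889 one of 0.967. ENSGACG00000018885 ran from 0.777 to 12.1 CPM in the telencephalon and ENSGACG00000018889 from 1.41 to 21.0 CPM, and both were highest in male 319. Whether neighbours in number are neighbours on a chromosome was not tested here. Deviations were also set against depth and the not-unique, no-feature and ambiguous shares of the libraries. In the telencephalon these measures were about as related to the members as to other genes. The median absolute r was 0.160 to 0.233 for members, against 0.157 to 0.226 over all 16267 genes. In the diencephalon it was lower for members in each measure, at 0.185 to 0.227 against 0.188 to 0.292. An absolute r above 0.5 with the ambiguous share was found there in 8.09% of members and 19.5% of genes. In the telencephalon it was 10.7% and 9%. There the not-unique share gave 4.41% and 3.25%, the no-feature share 5.88% and 5.37%, and depth 1.84% and 4.62%. The rule requires both libraries of a male to deviate alike, so these comparisons with all genes are a description.

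The regions differed in the same direction in all 17 males in a similar share of members and of all genes. The mean log2 level was higher in the telencephalon in 91 members and lower in 181. The rule limits this difference, so it is a description. The level was higher in the telencephalon of all 17 males in 34 members, or 12.5%, where 15.6% of the 16267 genes were. It was higher in the diencephalon of all 17 males in 82 members, or 30.1%, where 30.7% of genes were. A difference of over 2-fold was found in 6 members, and its share over all genes was not counted. ENSGACG00000006713 had 118 to 544 CPM in the telencephalon, with diencephalon values of 195 to 1349 CPM, and male 321 was lowest in both. ENSGACG00000020942, the member with the most counts, had 4942 to 9442 CPM in the telencephalon, with diencephalon values of 5052 to 10411 CPM, and male 302 was lowest and male 308 highest in each.

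The design asks whether the brain responds to a courtship opportunity, a territorial challenge or both. The r of the rule was computed without the group means, so treatment differences did not enter it. The other limits of the rule used levels with the group means kept. No member and no other gene was called for any treatment in either region at an adjusted p under 0.05 (edgeR quasi-likelihood test, Benjamini-Hochberg adjustment over all genes). The count was 0 of 272 members in each region, all of which passed the filter on low counts, with 0% of the 18277 genes tested for the telencephalon and 0% of the 18399 for the diencephalon called. The 6 pairwise comparisons in each region also called 0 members and 0% of genes. At an unadjusted p under 0.05 for any treatment, 12 members stood in the telencephalon against 10 in the diencephalon, or 4.41% and 3.68%, against 2.49% and 2.72% of all genes tested.

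Unadjusted counts were highest for courtship against challenge and for tradeoff against courtship, and lowest for courtship against control. Between courtship and challenge, 25 members passed an unadjusted p of 0.05 in each region, or 9.19%, against 3.42% of genes for the telencephalon and 3.93% for the diencephalon. Between tradeoff and courtship, 21 members passed for the telencephalon and 23 for the diencephalon, against 3.81% and 4.51% of genes. For courtship against control there were 2 and 1 members, against 2.51% and 2.34% of genes. Challenge against control gave 11 and 10 (2.66% and 2.61% of genes). Tradeoff against control gave 10 and 10 (2.75% and 3.14%), and tradeoff against challenge 12 and 9 (3.44% and 3.53%). The choice by r favours genes with a wide spread between males, so the shares of members, here and for any treatment, are a description. Members that varied together repeat the same males and are not independent counts. Comparisons that share a group are not independent. The regions repeat the males and are not independent either: 18 of the 32 members that passed for courtship against challenge in either region passed in both.

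These counts depended on single males. The share of all genes that passed in each of these fits is not given here. The shifts are therefore not read as particular to the members. For any treatment in the telencephalon, 29 members passed without male 298, 19 without male 303 and 20 without male 321, but 4 or 5 without male 317, 329 or 330. In the diencephalon it was 23 without male 298, 28 without male 303, 21 without male 318 and 17 without male 321, and 5 or 6 without male 317, 322 or 330. Without challenge male 298, 44 members of the telencephalon comparison and 46 of the diencephalon one passed for courtship against challenge, and without challenge male 330 it was 15 and 14. Without male 317 it was 15 and 14, without male 322 it was 16 in the telencephalon, and without male 299 it was 16 in the diencephalon. For tradeoff against courtship, 38 and 39 passed without tradeoff male 321, and 32 in the telencephalon without male 298. Fold changes of members were also less precise, with a median SE of 0.28 for courtship against challenge in the telencephalon where all genes had 0.14. Their median absolute log2 fold change was 0.24, against 0.10 over all genes. The choice by r favours genes with a wide spread between males, so both differences are a description.

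ENSGACG00000010779 had the lowest p for any treatment in both regions. In the telencephalon the 4 tradeoff males had 23.3, 24.0, 24.0 and 27.8 CPM and the 4 courtship males 10.1, 11.4, 11.8 and 11.8 CPM. The diencephalon values were 21.7, 24.5, 26.6 and 28.5 CPM and 9.97, 10.2, 12.1 and 12.1 CPM. These groups did not overlap. The gene is named for its low p, and the share of all genes that separate these groups was not counted. The controls, at 10.8 to 22.0 CPM in the telencephalon, and the challenge males, at 9.26 to 24.1 CPM, lay between and among them. Its log2 fold change for tradeoff against courtship was 1.14 (SE 0.25, edgeR adjusted p = 0.9994) in the telencephalon and 1.18 (SE 0.27, edgeR adjusted p = 0.8397) in the diencephalon. All tradeoff males were thus higher than all courtship males, and the gene did not pass the adjustment.

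Calls appeared under other settings for this comparison only. With DESeq2 in place of edgeR, ENSGACG00000010779 was called in the telencephalon (adjusted p = 0.0230) and the diencephalon (adjusted p = 0.0341), where 0.0235% and 0.0187% of genes were called. Over 23 alternatives its adjusted p was 0.000375 to 1 in the telencephalon, and in the diencephalon 0.00146 to 0.9999, and 2 in each region were under 0.05. With the spread estimated from the 8 compared libraries alone, edgeR called ENSGACG00000010779, ENSGACG00000000633 and ENSGACG00000000638 in both regions, with 0.0227% and 0.0446% of genes called. That fit leaves out the males of the other groups, and ENSGACG00000000638 was at both levels in these. Its high level was found in all 4 courtship males, in none of the 4 tradeoff males, in 2 of 4 controls and in 2 of 5 challenge males. ENSGACG00000000633, a neighbour in number, was at 122 ± 18.6 CPM in courtship and 57.4 ± 6.04 CPM in tradeoff males of the telencephalon (SD, n = 4 each). Across all 17 males ENSGACG00000000633 was at 100.2 to 148.1 CPM where ENSGACG00000000638 was high and at 45.3 to 68.1 CPM where it was low.

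Other members with the lowest p for any treatment overlapped between some of the groups. ENSGACG00000019775 was at 3.94 ± 1.17 CPM in the telencephalon of challenge males (SD, n = 5) and 12.1 ± 6.92 CPM in controls (n = 4). Control male 303, at 2.54 CPM, was below every challenge male, so these groups overlapped (log2 fold change -1.60, SE 0.44, edgeR adjusted p = 0.9998). The 5 challenge males, at 2.93 to 5.63 CPM, did lie below all courtship males, at 6.55 to 16.3 CPM, and all tradeoff males, at 6.06 to 16.1 CPM. The share of all genes with such a separation was not counted. In the diencephalon the challenge males, at 3.21 to 6.63 CPM, overlapped with each of the other groups. ENSGACG00000007787 had 3 challenge males at 12.7 to 14.6 CPM in the telencephalon, with diencephalon values of 12.02 to 15.8 CPM, and all other 14 males at 26.8 to 36.1 and 29.6 to 37.4 CPM. Of the other Ensembl genes, 0.0799% (13 of 16266) divided these males in the same way in both regions. ENSGACG00000015890 was at 24.7 ± 9.13 CPM in challenge males and 15.2 ± 1.88 CPM in controls in the telencephalon, with 3 of the 5 challenge males above every control. None of these 3 passed the adjustment in either region.

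**Figure D5:**
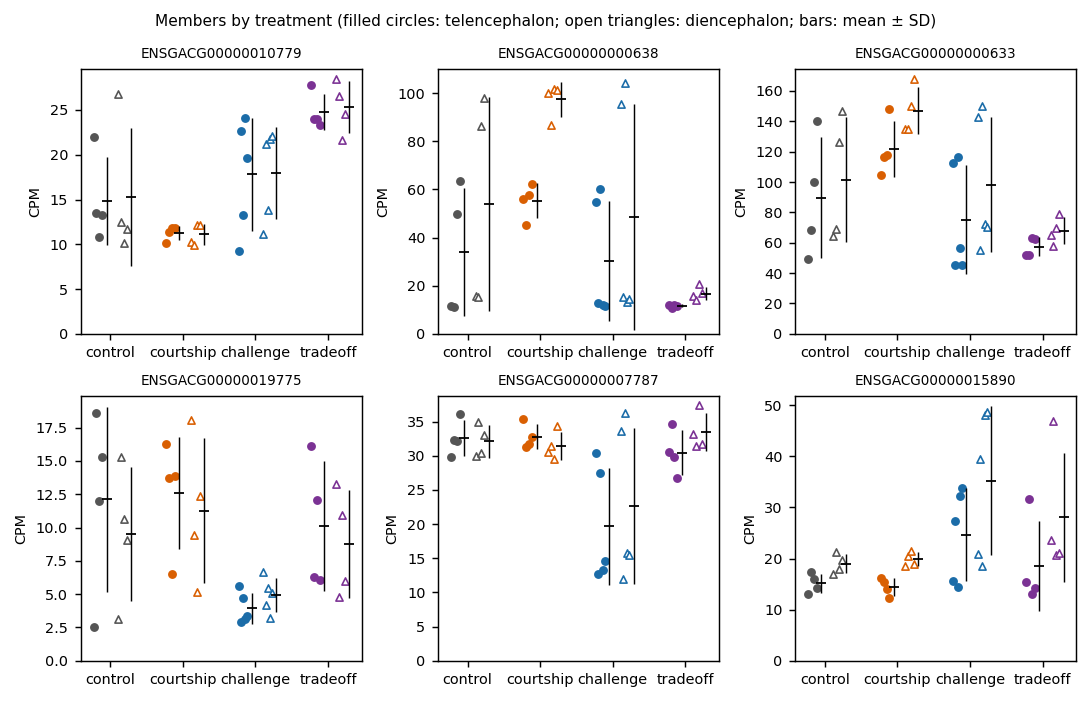
CPM by treatment for 6 members, with 1 point per library (filled circles for the telencephalon, open triangles for the diencephalon) and the mean ± SD of each group. ENSGACG00000010779 separates tradeoff from courtship males in both regions, and the high and low levels of ENSGACG00000000638 both occur among controls and challenge males.

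The r above 0.9 was computed after subtraction of the group means in each region, so it did not use the treatment responses. It did require the regions of a male to share most of the spread within groups, so the counts below are a description. The test of region by treatment over all 34 libraries called 0 members and 0% of 18923 genes, and 0 members passed an unadjusted p of 0.05 where 1.49% of genes did. In that fit the spread between males stands in the residual. With male as a block, the fit that removes the differences between males, 17 members passed the unadjusted threshold, or 6.25%, against 2.44% of genes. Again 0 members and 0% of genes were called. The median SD over males of the log2 difference between regions was 0.172 in the members.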

How the data were processed

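Per the labels' protocols, stranded mRNA libraries were sequenced for 34 samples, and STAR and HTSeq made the deposited values, per the submitters' processing notes. These are raw counts of reads for each gene model, as the authors deposited them. Versions, build, annotation and strand setting were not found in the labels or headers. The 5 summary rows of HTSeq stayed out of library sizes and tests. They held 32.9% to 41.7% of a library as no-feature reads and 3.72% to 21.9% as alignments that were not unique.

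CPM and the selection values were computed in Python 3.11.15 from plain gene totals with a pseudocount of 0.1 CPM. Tests used edgeR 4.0.16 in R 4.3.3 (TMM, filterByExpr, robust quasi-likelihood F test, Benjamini-Hochberg adjustment over all genes, threshold 0.05), on 17 libraries per region or all 34. A standard error is the fitted log2 fold change over the square root of its F. Alternatives used limma 3.58.1 (voom) and DESeq2 1.42.0. The scripts were tested on simulated counts. The members and lists were chosen with earlier results of these data known. Of the members, the text names the 6 with the highest CPM, the 6 with the widest telencephalon range, the 6 with the highest r, the 6 closest pairs, the 3 with the lowest any-treatment p per region, ENSGACG00000010779, and those next to each limit. The stepped members, partners and joined sets named besides were chosen after their values were seen. The marker lists could not be used, since 0 of 22295 identifiers matched the 52177 reference genes of assembly fGasAcu3.hap1.1.

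The regions come from the same males, and this pairs their libraries by male number. Chi-square over degrees of freedom was 12.7 to 101.7 in the 56 pairs of libraries within groups, so each library counted as 1 replicate. Counts carry no molecular identifiers. The Poisson SD covers counting error only, whereas the SDs over males and the SEs of fold changes also hold the spread between males.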

Additional observations from a re-analysis of the deposited data

Results flagged for a closer look

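Among the 31 members named by rule, 248 sets of 4 or 5 libraries (those of a region and a treatment) were searched for a library far from the others by Dixon's criterion at 95%. A library stood apart in 27 sets, from 16 genes, where chance marks about 1 in 20 unselected sets. These genes were named in part for their range and r, and the regions repeat the males, so that rate is no comparison here. In 6 cases the same male stood apart in both regions, in genes chosen for following the male.

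Male 298 accounted for many of these in the challenge group. It was lowest for ENSGACG00000010004, at 0.279 CPM in the telencephalon, with 0.0724 CPM in the other region, where the other 4 males had 2.84 to 4.12 and 3.87 to 4.74 CPM. The value of 0.0724 CPM is near the floor, below the pseudocount of 0.1 CPM. Male 298 was lowest in the telencephalon for ENSGACG00000003612 at 9.53 CPM (others 19.7 to 25.98), ENSGACG00000003613 at 8.70 CPM (others 20.0 to 25.7) and ENSGACG00000012958 at 32.8 CPM (others 72.0 to 98.1). In the diencephalon it was lowest for ENSGACG00000010668, at 5.22 CPM against 21.9 to 38.1 CPM. It was highest for ENSGACG00000013671, at 90.7 and 109.2 CPM against 36.3 to 39.7 and 39.0 to 40.0 CPM. Tradeoff male 321 was highest for the same gene, at 93.6 and 125.0 CPM against 35.3 to 41.3 and 35.8 to 40.4 CPM.

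Males 308, 318 and 329 stood apart in the genes that divided them from the rest. In control male 308, the telencephalon had 83.0 CPM of ENSGACG00000020463. It was at 86.5 and 86.4 CPM in the 2 regions of courtship male 329, and at 98.6 CPM in the diencephalon of challenge male 318. The other libraries of those groups were at 37.98 to 44.2 CPM. ENSGACG00000020327 was at 180.7 CPM in the diencephalon of male 308 and at 179.8 CPM in that of male 318, where the others had 127.1 to 128.8 and 111.1 to 127.7 CPM.

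Tradeoff male 306 was highest for ENSGACG00000005796, at 4.04 and 6.08 CPM against 0.198 to 0.354 and 0.732 to 1.04 CPM, and for ENSGACG00000015890 in the diencephalon, at 46.9 against 20.6 to 23.6 CPM. It was lowest for ENSGACG00000000357 in the telencephalon, at 53.5 against 71.9 to 75.2 CPM. Control male 303 was lowest for ENSGACG00000007104, at 9.999 and 10.7 CPM against 17.0 to 18.8 and 23.1 to 26.5 CPM. It was also lowest for ENSGACG00000000141 in the diencephalon, at 4.62 against 19.8 to 24.4 CPM, and courtship male 329 was highest for that gene there, at 21.1 against 18.0 to 18.1 CPM. Tradeoff male 302 was highest for ENSGACG00000010779 in the telencephalon, at 27.8 against 23.3 to 24.0 CPM. Challenge male 322 was highest for ENSGACG00000006694 in the diencephalon, at 8.84 against 1.44 to 2.22 CPM. Courtship male 319 was lowest for ENSGACG00000000638 in the diencephalon, at 86.7 CPM where the highest had 101.8 CPM, which is within the high level of that gene.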

How the results depend on the processing

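The number of members depends on its limits: it was 609 with an r above 0.85, 74 above 0.95, 167 with Spearman's rho, and 506 without males 298, 304, 308 and 321, of which 215 are among the 272. Leaving out 1 male gave 262 to 338 members, with 234 to 262 of the 272 among them. Pseudocounts of 0.5 and 1 CPM gave 316 and 338, TMM scaling 290, no subtraction of group means 238, and the range limit in both regions 267. Members called were 0 in all 15 treatment tests, and stayed at 0 whichever male was left out (0 to 0). The exceptions among the alternatives were tradeoff against courtship, with 1 member by DESeq2 and 3 in a fit of the compared groups alone, in each region. The replicate block by male left the interaction at 0 called and moved its unadjusted count from 0 to 17, or 25 without the 4 males, and 20 without male 304, which was tried after seeing the data. It was no alternative within a region, where each male has 1 library. Of 370 alternative values (the number of members and the calls in the 15 tests), 362 stayed within 1.5 times the reported count. Most of these were 0 calls beside 0 calls, so the share says little about stability. Counts at an unadjusted p under 0.05 moved most. The shares of all genes in fits without males, with or without the block, are not given. These shifts are therefore not read as particular to the members. Without 1 male, courtship against control gave 1 to 11 members in the telencephalon (11 without male 299, 1 without male 302 or 320) and 1 to 7 in the diencephalon (7 without male 307). Challenge against control gave 6 to 28 and 6 to 31 (28 and 31 without male 303), tradeoff against control 1 to 20 and 5 to 31 (20 and 31 without male 303, 1 without male 308), and tradeoff against challenge 8 to 16 and 4 to 16. The cause was not tested.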

Other observations

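Some other members fell into levels as well. ENSGACG00000000141 was at 1.27 to 3.84 CPM in the telencephalon of males 302, 303, 306, 317, 322, 323 and 330 and at 12.8 to 21.7 CPM in the other 10. In the diencephalon the same males had 0.407 to 6.25 and 18.0 to 26.8 CPM. The 7 males with the low level include the 6 males with the high level of ENSGACG00000012612. ENSGACG00000018375 was at 273 to 310 CPM in the telencephalon of males 298, 299, 304, 307 and 319 and at 450 to 598 CPM in the other 12. The diencephalon values were 185 to 238 and 295 to 397 CPM. All 5 males with the low level had the high level of ENSGACG00000013671, and male 321, which had that level too, was at 543 and 344 CPM. These members and divisions were chosen after their values were seen, and no test was run. The share of all genes that divide the males in these ways was not counted.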
